A study of Mus musculus with 10 samples.

Results

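The nuclear genes for the subunits of the mitochondrial respiratory chain and ATP synthase were followed across 3 genotypes in the lumbar cord of female mice at 3 months of age. They were taken by gene symbol from the table of 22024 genes (Nduf with a, b, c, s or v and a digit, Sdha to Sdhd, Uqcr, Cyc1, Cox4 to Cox8 and Atp5, protein coding), which gave 84 genes. Ndufs5, which matches this pattern, and gene models with -ps in their name were left out beforehand, so complex I is counted without Ndufs5. Of these, 34 belong to complex I, 4 to complex II, 9 to complex III, 20 to complex IV and 17 to complex V, and 82 had enough counts to be tested among 15191 genes. A subset of 74 of the tested genes encodes subunits used in most tissues, called the broadly used subunits here. The other 8 tested genes are the tissue isoforms Cox4i2, Cox6a2, Cox6b2, Cox7a1 and Cox8b and the related factors Cox7a2l, Ndufa4l2 and Atp5s.

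Complexes I to IV pass electrons from NADH and succinate to oxygen and, except for complex II, pump protons across the inner mitochondrial membrane; complex V lets the protons back and makes ATP. A few subunits of complexes I, III, IV and V are encoded in mitochondrial DNA and all others, among them every subunit of complex II, in the nucleus, so that a complex is built from both genomes. Neurons draw most of their ATP from this chain, and some complex IV subunits have second versions that are made chiefly in striated muscle, lung or testis.

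NTg mice (n = 3, animals 4, 5 and 6) were nontransgenic C57BL/6 animals. WT mice (n = 2, animals 8 and 10) carried the human TARDBP gene, at 1 copy per insertion, with its own genomic surroundings on a bacterial artificial chromosome (BAC). TARDBP encodes the RNA-binding protein TDP-43. M337V mice (n = 5, animals 1, 2, 3, 7 and 9) carried the same BAC with the M337V substitution, which is linked to amyotrophic lateral sclerosis. Both BACs were placed at the Rosa26 locus of embryonic stem cells by PhiC31 integrase exchange, and each line was backcrossed to C57BL/6J for at least 3 generations. The mouse Tardbp gene was left in place in all 3 groups, and the labels do not say whether the sequenced carriers had the BAC on 1 or both chromosomes.

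Each animal gave 1 library of polyA RNA with 18724888 to 21041474 counts. The library labelled NTg 4 held 2415 counts of human TARDBP, inside the range of the transgenic libraries (2192 to 2723), while NTg 5 held 1 and NTg 6 held 4; it kept its label, and results that rest on it are also given without it. The 12 posterior Hox genes (numbers 10 to 13 of each cluster), whose transcripts are typical of caudal cord, summed to 2295 to 4584 counts in 8 libraries, to 789 for M337V 3 and to 240 for WT 8. All 6 neuron markers and all 6 oligodendrocyte markers examined were detected, and none of the 10 skeletal muscle markers was at 0 in all libraries. On counts per 1000000 library counts (CPM), summed skeletal muscle markers came to 165, 773 and 1183 in NTg 4, 5 and 6, 626 CPM in WT 8, 20.5 CPM in WT 10 and 32.2 to 206 CPM in M337V.

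Promoters of respiratory chain genes are known for sites of NRF1, of ETS-family factors such as GABP (NRF2), of YY1 and of the estrogen-related receptor ESRRA. RefSeq promoters of the GRCm38.p6 build, each 250 bases before to 50 after the start, were matched for 67 of the 84 genes and searched on both strands. GCGCATGC, the core of the NRF1 site, was found in 10 (14.9%), against 3.05% of all 27025 promoters. CCGGAAG, an ETS core, was found in 16 (23.9%, against 9.93%), AAGATGG, a YY1 core, in 11 (16.4%, against 7.28%), and TCAAGGTCA, an ESRRA site, in 2 (2.99%, against 0.466%). The 10 with the NRF1 core were Ndufa6, Ndufa8, Ndufa11, Sdhb, Uqcrc1, Uqcr11, Cox6a1, Atp5g2, Atp5k and Atp5l, so it occurred in every complex. These matches are of letters and say nothing of binding.

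Below are 3 promoters, 5′ to 3′ on the gene's strand with matches in capitals, chosen because their genes are named in the results that follow. None of the 3 genes was called in the main edgeR fit. Uqcrc1 (chr9:108936398-108936697, plus strand) holds 2 overlapping matches of the NRF1 core after its start, from the same stretch read on both strands. Cox8a (chr19:7217567-7217866, minus strand) holds 2 ETS cores read on the opposite strand. Cox8b (chr7:140900397-140900696, minus strand), the muscle counterpart of Cox8a, holds none of the 4 motifs. The 3 promoters contain 15, 19 and 2 CpG dinucleotides in that order.
Uqcrc1: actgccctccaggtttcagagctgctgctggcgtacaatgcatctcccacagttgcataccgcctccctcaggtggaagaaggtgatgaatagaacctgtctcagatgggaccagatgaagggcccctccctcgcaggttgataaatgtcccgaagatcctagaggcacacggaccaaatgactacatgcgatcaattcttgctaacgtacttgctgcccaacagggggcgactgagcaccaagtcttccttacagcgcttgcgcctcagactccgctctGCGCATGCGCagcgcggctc
Cox8a: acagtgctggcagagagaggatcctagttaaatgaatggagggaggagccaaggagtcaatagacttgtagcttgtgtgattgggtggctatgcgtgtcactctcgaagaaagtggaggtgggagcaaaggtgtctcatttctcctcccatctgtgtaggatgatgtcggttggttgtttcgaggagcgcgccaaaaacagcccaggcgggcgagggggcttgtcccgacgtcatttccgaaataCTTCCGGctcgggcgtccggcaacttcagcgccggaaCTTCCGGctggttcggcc
Cox8b: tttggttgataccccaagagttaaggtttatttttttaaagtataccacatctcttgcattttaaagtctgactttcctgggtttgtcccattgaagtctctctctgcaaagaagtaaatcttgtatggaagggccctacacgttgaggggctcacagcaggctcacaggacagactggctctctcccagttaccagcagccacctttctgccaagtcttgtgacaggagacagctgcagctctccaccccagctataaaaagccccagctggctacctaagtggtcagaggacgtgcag

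Respiratory chain transcripts were abundant, and their levels per transcript length differed widely between subunits. On the scale of CPM per kilobase (mean of 10 libraries), Atp5b, the catalytic beta subunit of ATP synthase, stood highest at 700, followed by Cox4i1, a nuclear subunit of complex IV, at 563 and Ndufa4, now counted as a complex IV subunit, at 480. Complex I genes ran from 179 for Ndufb9 down to 17.3 for Ndufb4, both accessory subunits. Within complex II the flavoprotein Sdha, which oxidises succinate, was at 204, the iron-sulfur protein Sdhb at 90.6 and the membrane anchors Sdhd and Sdhc at 81.0 and 37.6, so the 4 transcripts of a complex with one copy of each subunit were not level. Complex III ran from 281 for the hinge protein Uqcrh to 89.0 for the Rieske protein Uqcrfs1. In complex V all except Atp5s (13.0), a related factor, lay at or above the 83.9 of Atp5g2, 1 of 3 genes for the same c-ring protein.

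**Figure D1:**
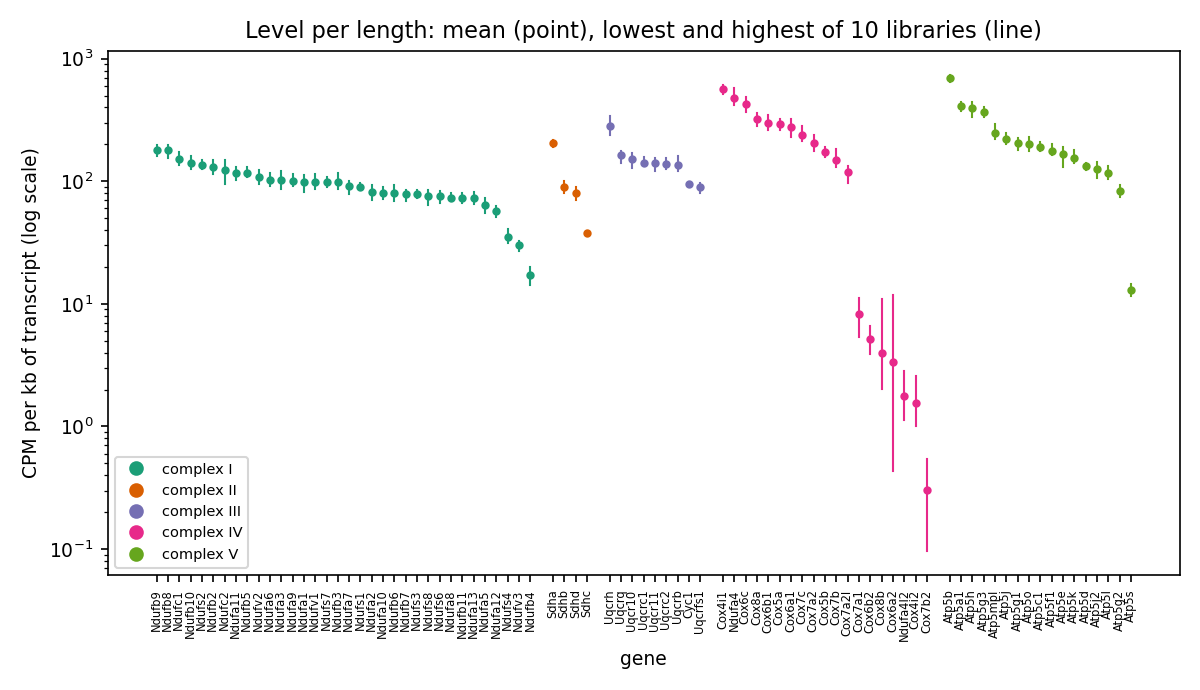
Level of each gene in CPM per kilobase of transcript on a log axis, with the mean of 10 libraries as a point and the lowest and highest library as a line, ordered by complex. Broadly used subunits of complexes III to V mostly lie above 100, the tissue isoforms of complex IV lie below 10, and Cox8c (1 count in all) is not drawn.

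The tissue isoforms of complex IV lay far below their broadly used partners. Cox6a2 averaged 3.34 CPM per kilobase against 275 for Cox6a1, Cox8b 3.98 against 323 for Cox8a, and Cox7a1 8.25 against 204 for Cox7a2. Cox6b2, known from testis, averaged 5.19 against 296 for Cox6b1, and Cox4i2, known from lung and responsive to oxygen, 1.56 against 563 for Cox4i1. Cox7b2, at 1 to 6 counts a library, and Cox8c, with 1 count over all 10 libraries (M337V 1), were the 2 genes too low to test. For the 9 libraries without a Cox8c read, a count of 0 allows up to 3 counts each as far as counting error goes.

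Between libraries the broadly used subunits varied little. Their coefficient of variation over all 10 libraries had a median of 7.40%, against 9.67% for all genes tested. Cyc1, the cytochrome c1 of complex III, was the steadiest at 3.05%, followed by Sdhc at 3.34% and Sdha at 4.25%, and Ndufc2, an accessory subunit of complex I, varied most at 12.6%. The isoforms Cox6a2 (107%) and Cox8b (67.1%) varied far more.

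None of the 82 tested respiratory chain genes differed between M337V and NTg at an adjusted p below 0.05 (edgeR's quasi-likelihood test, Benjamini-Hochberg over all genes; smallest adjusted p = 0.0601), in a comparison where 4.29% of all genes tested did. At an unadjusted p below 0.05 there were 4 of 82, 1 higher and 3 lower, against 24.5% of all genes, and 2 of 82 (2.44%) had groups that did not overlap, against 18.1% of all genes. The median log2 difference of the 82 genes was 0.038, with 59 above and 23 below 0, against a median of -0.012 for all genes tested. For 75 of them the 95% interval of the difference lay within 1.3-fold in either direction (log2 0.379), which held for 9050 of the 15191 genes tested. These included all 74 broadly used subunits, whose differences ran from -0.12 to 0.12. With limma-voom 1 of 82 passed (Cox6a2), against 8.66% of all genes, and with DESeq2 1 (Cox7a2l), against 9.87%. Without the library labelled NTg 4 the median was 0.016 with 45 of 82 above 0, and without NTg 5 it was 0.069. It turned to -0.0095 with 36 of 82 above 0 without M337V 1 to 3 (library numbers 10 to 12), and was 0.069 without M337V 7 and 0.083 with 69 above 0 without M337V 7 and 9.

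**Figure D2:**
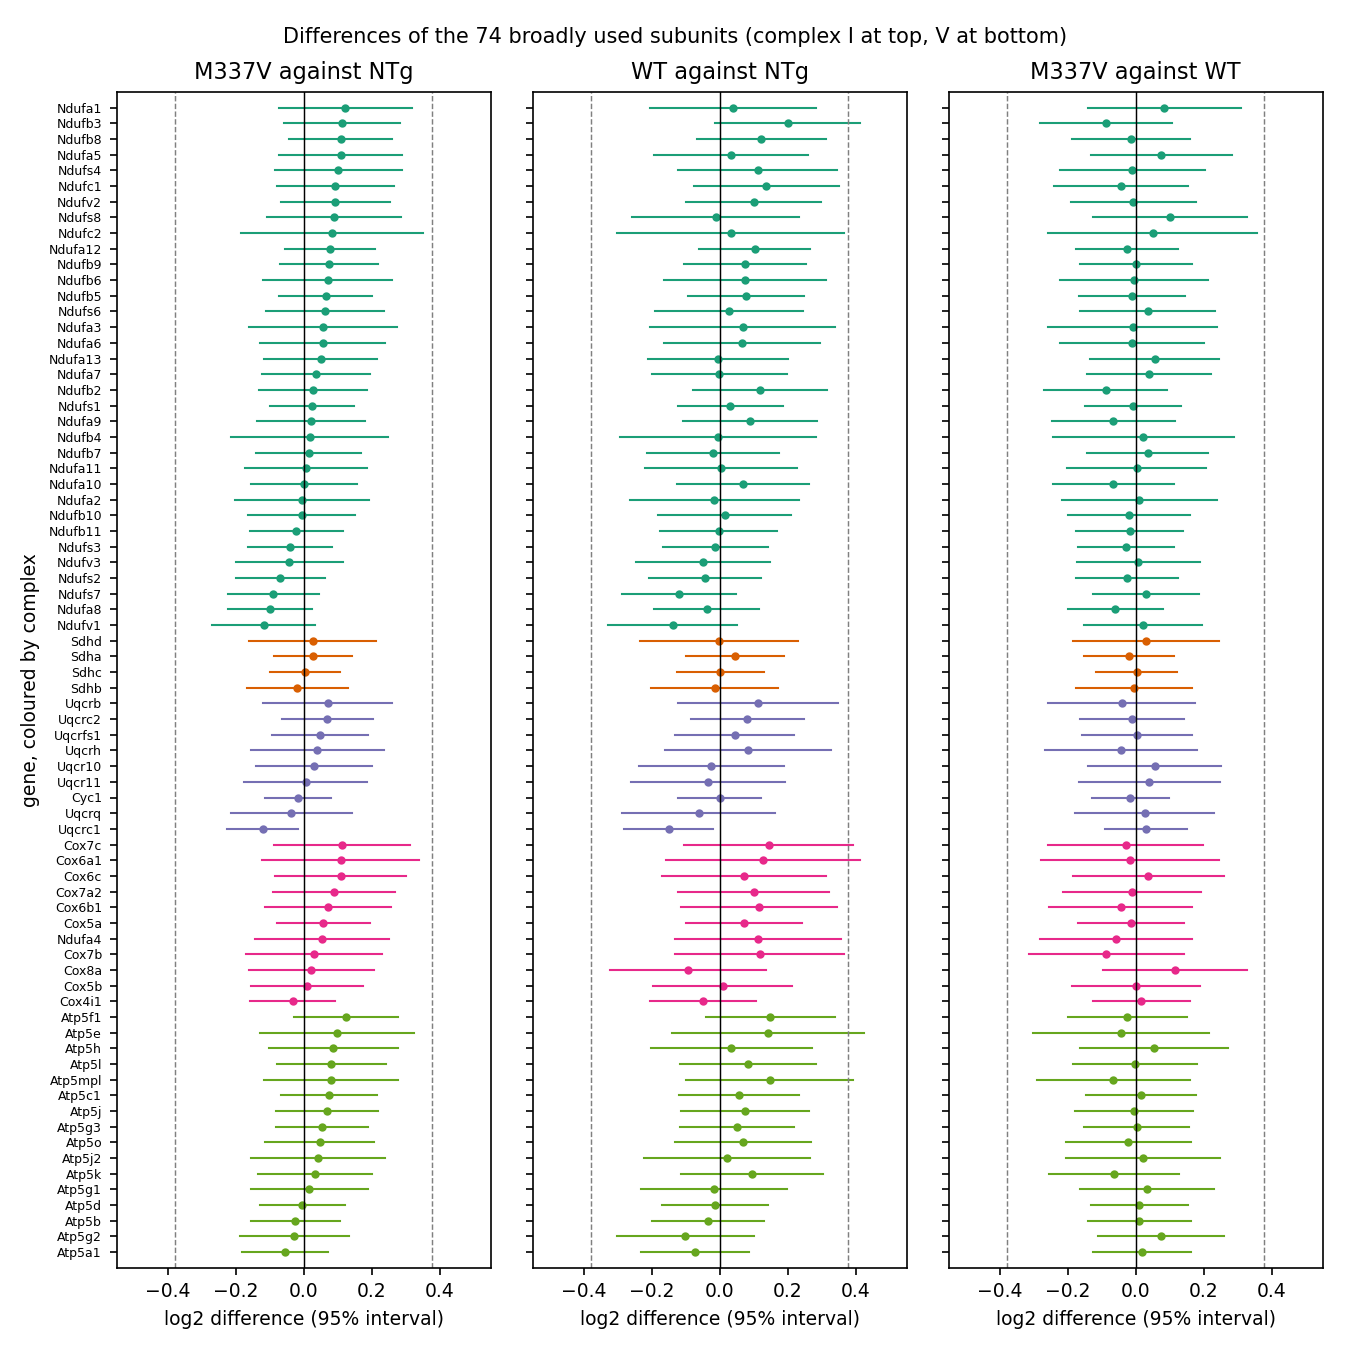
Log2 difference (point) and 95% interval (line) of the 74 broadly used subunits in each comparison, coloured by complex from I at the top to V at the bottom, with dashed lines at 1.3-fold. The differences run from -0.15 to 0.20 across all 3 comparisons, and all intervals cross 0 except those of Uqcrc1 in both comparisons with NTg.

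None of the 34 genes followed here for complex I, which oxidises NADH, passed in M337V against NTg. The 7 core subunits, which hold the flavin and the iron-sulfur clusters, had a median log2 difference of -0.041 between M337V and NTg, with 4 below 0, and the 27 accessory subunits one of 0.056, with 22 above 0; the difference between them was not tested. Ndufv1, the NADH-binding subunit, stood at 155, 176 and 190 CPM in NTg 4, 5 and 6, at 145 and 171 CPM in WT 8 and 10, and at 155 to 165 CPM in M337V (median 161). The M337V values sat within the NTg range, with a log2 difference of -0.12 ± 0.07 (SE; adjusted p = 0.319). The accessory subunits Ndufa8 (-0.10 ± 0.06, adjusted p = 0.304) and Ndufb8 (0.11 ± 0.07, adjusted p = 0.368) also did not pass. Without NTg 4 the differences were -0.19 for Ndufv1, -0.14 for Ndufa8 and 0.051 for Ndufb8, and without NTg 6 that of Ndufv1 was -0.051. With the trends over transcript GC content and length removed they were -0.050, -0.044 and 0.18.

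Complex II genes lay close to 0. Sdha, which also serves the citric acid cycle, stood at 582 ± 29.0 CPM in NTg (SD, n = 3), 601 ± 37.6 CPM in WT (SD, n = 2) and 593 ± 23.1 CPM in M337V (SD, n = 5). Its log2 difference between M337V and NTg was 0.027, with a 95% interval from -0.088 to 0.14. The differences of Sdhb, Sdhc and Sdhd were -0.019, 0.0051 and 0.027, and the widest of the 4 intervals ran from -0.16 to 0.21 (Sdhd). Signs this close to 0 were not stable: without NTg 4 all 4 differences were below 0, at -0.0077 for Sdha and -0.093 for Sdhb, and with the trends removed all 4 were above 0. In the main fit all 4 genes had intervals within 1.3-fold, in this comparison and in the other 2.

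In complex III, which hands electrons from ubiquinol to cytochrome c, Uqcrc1 was the lowest relative to NTg. Uqcrc1 (ENSMUSG00000025651, GRCm38 chromosome 9, 108936633 to 108949623, plus strand) encodes core protein 1, a matrix-side subunit without a redox centre. Its levels were 232, 254 and 262 CPM in NTg 4, 5 and 6, 224.5 and 224.6 CPM in WT 8 and 10, and 219, 228, 233, 233 and 234 CPM in the M337V libraries in ascending order. Both WT libraries lay below all NTg libraries, while 3 M337V libraries lay above the lowest NTg library, the one labelled NTg 4. The log2 difference was -0.12 ± 0.05 for M337V (adjusted p = 0.142, edgeR) and -0.15 ± 0.06 for WT (adjusted p = 0.143), neither past the threshold. Without NTg 4 they were -0.16 (adjusted p = 0.107) and -0.19 (adjusted p = 0.102), and with each library's trends over transcript GC content and length removed, -0.054 (adjusted p = 0.568) and -0.059 (adjusted p = 0.603).
Its partner Uqcrc2, core protein 2, differed by 0.070 ± 0.061 between M337V and NTg (adjusted p = 0.522) and Uqcrb by 0.071 ± 0.087 (adjusted p = 0.657). With the trends removed the sign of both turned, to -0.0082 and -0.095. The electron carriers of the complex, Cyc1 and Uqcrfs1, had intervals within 1.3-fold.

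The 11 broadly used subunits of complex IV, which reduces oxygen, had a median log2 difference of 0.058 between M337V and NTg, and none passed (smallest adjusted p = 0.482). The smallest p-values of the complex were those of a related factor and 2 muscle isoforms. Cox7a2l (ENSMUSG00000024248, GRCm38 chromosome 17, 83501918 to 83517330, minus strand) encodes a relative of Cox7a2 known for a part in linking complexes III and IV into supercomplexes. Whether its product does so in these mice was not examined. Its levels were 104, 118 and 125 CPM in NTg 4, 5 and 6, 118 and 134 CPM in WT 8 and 10, and 127, 129, 141, 141 and 144 CPM in the M337V libraries in ascending order. Every M337V library lay above every NTg library and the WT values overlapped both groups. The log2 difference between M337V and NTg was 0.24 ± 0.07 (adjusted p = 0.0718, edgeR), with an interval from 0.084 to 0.39. Without NTg 4 it was 0.17 (adjusted p = 0.212). DESeq2 gave an adjusted p = 0.0175 for this gene. In edgeR it was 0.30 (adjusted p = 0.0396) without M337V 7 and 9 and 0.16 (adjusted p = 0.490) without M337V 1 to 3. These fits called 7.59% and 0.0198% of all genes in that order.

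Cox6a2 (ENSMUSG00000030785, GRCm38 chromosome 7, 128205435 to 128206387, minus strand), the isoform of subunit 6a in heart and skeletal muscle, stood at 1.76, 4.29 and 8.10 CPM in NTg 4, 5 and 6. In WT it was at 3.45 CPM in WT 8 and 0.292 CPM in WT 10, a library with 6 counts, and the M337V libraries held 0.312, 0.644, 1.18, 1.19 and 1.51 CPM in ascending order. All M337V values lay below all NTg values, with a log2 difference of -2.28 ± 0.63 (adjusted p = 0.0601, edgeR), while WT 8 lay inside the NTg range. Cox6a2 passed in M337V against NTg in limma-voom (adjusted p = 0.0392), in edgeR on both groups alone (adjusted p = 0.0254) and in edgeR without both NTg 4 and WT 8 (adjusted p = 0.00925). Without NTg 6 its difference was -1.64 (adjusted p = 0.293), without M337V 1 to 3 -2.64 (adjusted p = 0.319) and with the GC and length trends removed -2.24 (adjusted p = 0.104). Over all genes these fits called 0.0132%, 0.0198% and 1.05% in that order, against 4.29% in the main fit. Cox8b (ENSMUSG00000025488, GRCm38 chromosome 7, 140898945 to 140900446, minus strand), the muscle and brown fat isoform of subunit 8, stood at 0.735, 1.97 and 3.96 CPM in NTg 4, 5 and 6. It was at 1.57 and 0.828 CPM in WT 8 and 10 and at 0.912 to 1.19 CPM in M337V (median 1.04), all above NTg 4. Its log2 difference between M337V and NTg was -1.08 ± 0.41 (adjusted p = 0.135, edgeR), it was -1.48 without NTg 4 (adjusted p = 0.0462) and -0.36 without NTg 6 (adjusted p = 0.674). The fits without NTg 4 and without NTg 6 called 1.3% and 0.0132% of all genes.

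The libraries highest in both isoforms were those highest in skeletal muscle markers. NTg 6, NTg 5 and WT 8 had the highest levels of both, in that order, and these 3 were the only libraries with summed muscle markers above 206 CPM. Below them the order differed for Cox8b, which was lowest of all in NTg 4 (muscle markers 165 CPM). Of the 10 muscle markers 10 were detected, with sums of 165 to 1183 CPM in NTg, 20.5 to 626 CPM in WT and 32.2 to 206 CPM in M337V, and Myh2 and Mb fell in M337V relative to NTg (adjusted p = 0.0464 and 0.0468, edgeR). The part of muscle RNA in the Cox6a2 and Cox8b values was not tested. Cox7a1, the muscle isoform of subunit 7a, ran from 2.11 CPM in NTg 4 to 4.38 CPM in NTg 5 with 2.95 to 3.50 CPM in M337V (log2 difference -0.032 ± 0.21, adjusted p = 0.945). The broadly used partners Cox6a1 (0.11 ± 0.11, adjusted p = 0.565), Cox8a (0.022 ± 0.084, adjusted p = 0.899) and Cox7a2 (0.090 ± 0.082, adjusted p = 0.538) did not differ past the threshold. In bulk tissue fewer cells of a type and less RNA per cell cannot be told apart.

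**Figure D3:**
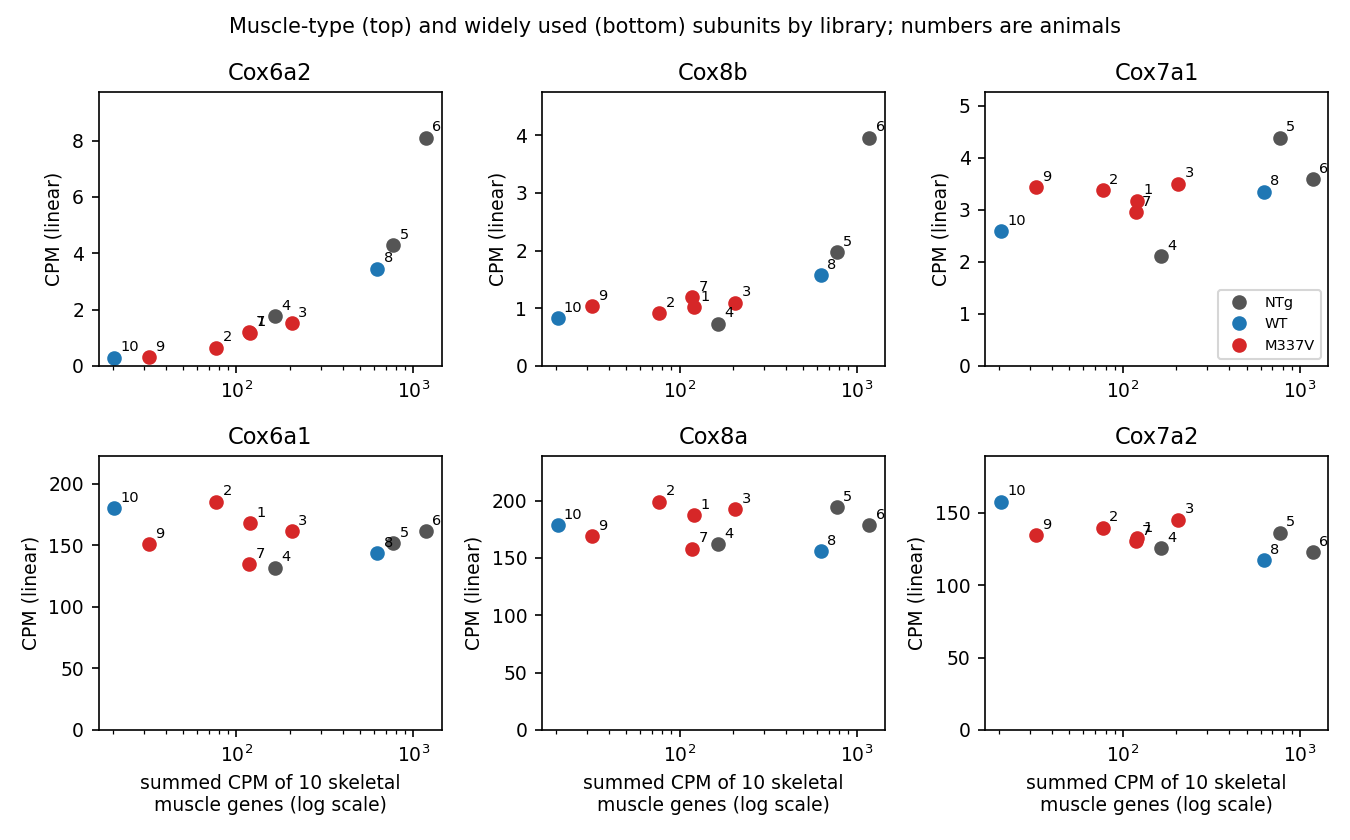
CPM of 3 muscle isoforms of complex IV (top) and their broadly used partners (bottom) in each library against the summed CPM of 10 skeletal muscle genes on a log axis, coloured by group and numbered by animal. Cox6a2 and Cox8b are highest in NTg 6 and NTg 5 and next in WT 8, at the right of each plot, while Cox6a1, Cox8a and Cox7a2 show no such order.

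Among the other isoforms, Cox6b2 stood at 2.02 to 3.07 CPM in NTg, 1.99 and 3.07 CPM in WT and 1.81 to 2.84 CPM in M337V (log2 difference between M337V and NTg -0.23 ± 0.22, adjusted p = 0.543). Its partner Cox6b1 differed by 0.072 ± 0.084 (adjusted p = 0.645), Cox7b, the partner of Cox7b2, by 0.031 ± 0.092 (adjusted p = 0.870), and Cox4i1 by -0.032 ± 0.057 (adjusted p = 0.767).

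ATP synthase genes had a median log2 difference of 0.055 between M337V and NTg, with 13 of 17 above 0. Atp5s, known as coupling factor B, had the smallest p of them. Its levels were 17.5, 18.4 and 17.3 CPM in NTg 4, 5 and 6, 19.1 and 21.5 CPM in WT 8 and 10, and 18.3 to 21.4 CPM in M337V (median 20.2). Its log2 differences were 0.16 ± 0.08 for M337V (adjusted p = 0.225, edgeR) and 0.20 ± 0.09 for WT (adjusted p = 0.215). Atp5f1, of the peripheral stalk, differed by 0.12 ± 0.07 (adjusted p = 0.304), which turned to -0.016 with the GC and length trends removed, and Atp5c1, the rotating gamma subunit, by 0.073 ± 0.065 (adjusted p = 0.523). Atp5b, the most abundant of all, was at 1360 ± 70.7 CPM in NTg (SD, n = 3) and 1337 ± 57.0 CPM in M337V (SD, n = 5).

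Between WT and NTg 0 of the 82 genes passed (edgeR, smallest adjusted p = 0.143), where 5.64% of all genes did. At an unadjusted p below 0.05 there were 2 of 82, Uqcrc1 and Ndufa4l2, both lower, against 25.3% of all genes. Groups that did not overlap were found for 3 of 82 (3.66%, against 41.7% of all genes), namely Atp5s, higher in WT, and Uqcrc1 and Ndufa4l2, lower. Ndufa4l2, a relative of Ndufa4 that is induced by low oxygen, stood at 2.64, 1.28 and 1.86 CPM in NTg 4, 5 and 6, at 1.05 and 1.12 CPM in WT 8 and 10 and at 1.28 to 2.48 CPM in M337V (median 1.62). Its log2 difference was -0.83 ± 0.36 for WT (adjusted p = 0.178, edgeR) and -0.53 without NTg 4 (adjusted p = 0.440). Ndufb3, an accessory subunit of complex I, had the largest difference among broadly used subunits at 0.20 ± 0.10 (adjusted p = 0.224), and it was 0.066 with the GC and length trends removed. Ndufv1 (-0.14 ± 0.09, adjusted p = 0.347) and the core subunit Ndufs7 (-0.12 ± 0.08, adjusted p = 0.363) had the next smallest p-values within complex I. In complex IV the differences of Cox6a2 and Cox8b were -1.35 ± 0.79 (adjusted p = 0.314) and -0.90 ± 0.53 (adjusted p = 0.318), and in complex V those of Atp5f1 and the small membrane subunit Atp5mpl were 0.15 ± 0.09 (adjusted p = 0.312) and 0.15 ± 0.11 (adjusted p = 0.447). With the trends removed these 2 were -0.013 and 0.054. The median of the 82 genes was 0.033, with 49 above 0, against -0.018 for all genes tested, and 70 intervals lay within 1.3-fold. limma-voom and DESeq2 also called 0 of 82, against 1.42% and 11.3% of all genes. Cox6a2 passed in this comparison only in the fit without both NTg 4 and WT 8 among those run (log2 -4.37, adjusted p = 0.0451), which left 1 WT library.

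M337V and WT carried the same BAC with and without the substitution, in separate lines. Their comparison does not isolate the substitution. WT had only 2 animals, whose posterior Hox counts were 240 (WT 8) and 4523 (WT 10), and M337V 1 to 3 had library numbers 10 to 12, which hold no WT library. Here 0 of the 82 genes passed (edgeR, smallest adjusted p = 0.749), as did 0% of all genes tested, and 0 of 82 had an unadjusted p below 0.05, against 6.66% of all genes. limma-voom called 0 and DESeq2 30 of all genes, with 0 of the 82 by either. The median log2 difference was -0.0042, with 39 above and 43 below 0, and 76 of 82 intervals lay within 1.3-fold, all 74 broadly used subunits among them. Groups did not overlap for 2 genes (2.44%, against 9.50% of all genes), Cox4i2 and Ndufa4l2, both higher in M337V. Cox4i2 stood at 0.733 and 0.828 CPM in WT 8 and 10 (14 and 17 counts), at 1.02 to 1.87 CPM in M337V (median 1.25) and at 0.784, 0.887 and 1.54 CPM in NTg 4, 5 and 6. Its log2 difference between M337V and WT was 0.75 ± 0.35 and that of Ndufa4l2 0.65 ± 0.34 (adjusted p = 0.749 and 0.776, edgeR), and for both genes the NTg range overlapped M337V. Next in complex IV by p came Cox7a2l (0.12 ± 0.08, adjusted p = 0.827, edgeR). The smallest p-values within the other complexes were those of Ndufb2 (-0.089 ± 0.083), Ndufb3 (-0.087 ± 0.089) and Ndufs8 (0.10 ± 0.10) in complex I, Uqcr10 (0.055 ± 0.090), Uqcrc1 (0.030 ± 0.055) and Uqcrh (-0.044 ± 0.10) in complex III, and Atp5g2 (0.073 ± 0.085), Atp5k (-0.063 ± 0.088) and Atp5mpl (-0.066 ± 0.10) in complex V.

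Single animals differed more in these genes than the genotype means did, and their shifts were shared across complexes. Means of several animals vary less than single animals by averaging alone, so the first of these is no measure of a genotype effect. In WT 10 the level of a gene was the highest of all 10 libraries for 54 of 82 respiratory chain genes (65.9%), against 13.1% of all genes tested. In WT 8, the other animal of the same genotype, it was the lowest for 49 of 82 (59.8%), against 13.4% of all genes. All 74 broadly used subunits were higher in WT 10 than in WT 8, where 49.7% of all genes tested were, and the 3 exceptions among the 82 were Cox6a2, Cox8b and Cox7a1. On log2(CPM + 0.5) the median difference between these animals was 0.293 for broadly used subunits and -0.0021 for all genes tested. It was 0.291 in complex I, 0.153 in complex II, and 0.339, 0.354 and 0.292 for broadly used subunits of complexes III, IV and V. Among broadly used subunits the smallest was 0.00069 in Uqcrc1, which was level in both animals, followed by 0.10 in Sdhc. The largest was in Ndufc2, at 64.6 CPM in WT 8 and 102 CPM in WT 10, followed by Uqcrh (132 and 185 CPM) and Cox7b (131 and 185 CPM). As each animal is 1 library, this is a description without a test.

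**Figure D4:**
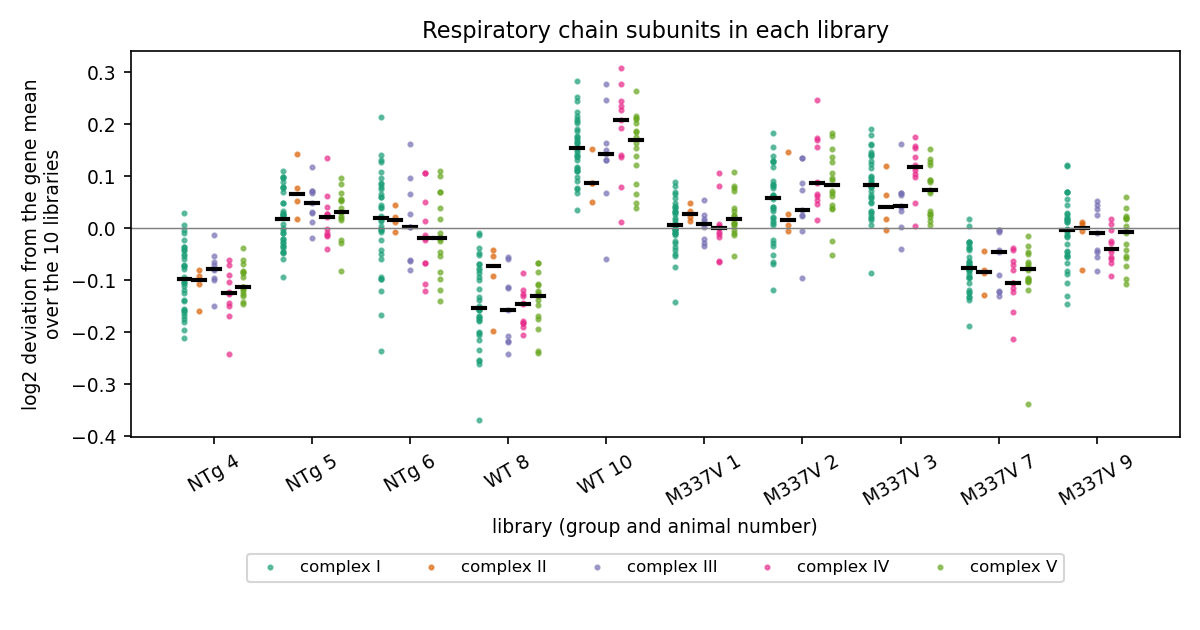
Deviation of each broadly used subunit from its own mean over 10 libraries on log2(CPM + 0.5), by library and complex, with black bars at the median of each complex. All complexes lie low together in NTg 4, WT 8 and M337V 7 and high together in WT 10, and Uqcrc1 is the only point below 0 in WT 10.

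The same shift occurred within the other groups. In NTg the library labelled NTg 4 was the lowest, below NTg 5 for 76 of 82 genes and below NTg 6 for 73 of 82, and the library medians of the deviation from each gene's mean were -0.10, 0.027 and 0.012 in NTg 4, 5 and 6. In M337V the medians ran from -0.078 in M337V 7 to 0.078 in M337V 3, and M337V 1, 2 and 3 all lay above M337V 7 for 69 of 82 genes (84.1%, against 28.7% of all genes). Those of WT 8 and WT 10 were -0.14 and 0.15, so both extremes of the 10 libraries fell in one group of 2. Summed over broadly used subunits, the level was 10761, 11811 and 11686 CPM in NTg 4, 5 and 6, 10525 and 12638 CPM in WT 8 and 10, and 10887 to 12069 CPM in M337V. The group means of this sum were 11420 ± 574 CPM in NTg (SD, n = 3), 11582 ± 1495 CPM in WT (SD, n = 2) and 11576 ± 444 CPM in M337V (SD, n = 5). They lay closer together than the animals of any group, as means of several animals tend to. With WT 10 left out the median log2 difference of WT from NTg was -0.13, with 8 of 82 genes above 0, and with WT 8 left out it was 0.17, with 74 above 0.

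Other mitochondrial and translational genes were compared between the same 2 WT animals, by list. The 78 cytosolic ribosomal protein genes had a median difference between WT 10 and WT 8 of 0.288, with 75 higher in WT 10. For 10 carriers of electrons and nucleotides, among them the cytochrome c and adenine nucleotide carrier genes, it was 0.248 (9 higher), for 76 mitochondrial ribosomal protein genes 0.166 (68 higher) and for 13 genes of the citric acid cycle 0.149 (12 higher). The medians of the assembly factors were 0.061 for complex I (13 of 17 higher), 0.244 for complex II (3 of 4), -0.0019 for complex III (3 of 6), 0.078 for complex IV (14 of 20) and 0.092 for ATP synthase (4 of 4), and 12 regulators of mitochondrial biogenesis had a median of -0.069, with 5 higher. Summed neuron markers came to 7608 CPM in WT 8 and 8578 CPM in WT 10, 6744 to 7570 CPM in NTg and 6818 to 8388 CPM in M337V. Of the 6 neuron markers 4 were higher in WT 10 than in WT 8, and 2, Syt1 and Rbfox3, were lower. Summed Schwann cell markers were lowest in WT 8 (810 CPM) and highest in NTg 4 (2610 CPM). The part of these cell types, of the level of cord sampled or of RNA quality in the shared shift was not tested.

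The respiratory chain genes also have short transcripts in common. Their principal transcripts had a median length of 730 bases, against 2816 for all genes tested, and 55 of 82 (67.1%) were under 1 kilobase, against 7.41% of all genes. They lie on 19 chromosomes, and 3 are X-linked. Across the 74 broadly used subunits the log2 difference fell with the GC content of the transcript in M337V against NTg (Spearman's rho -0.478) and in WT against NTg (-0.564), and rose with it in M337V against WT (0.345). The same rho over all genes tested was -0.432, -0.421 and 0.147. With transcript length rho was -0.303, -0.215 and -0.0501 for the subunits in these 3 comparisons, against -0.0446, 0.0468 and -0.132 over all genes. These are descriptions across genes of the same libraries, which are not independent replicates, and the first 2 comparisons share their NTg libraries. With each library's GC and length trends removed, the median differences of the 82 genes were 0.028, 0.015 and -0.00019 and none was called.

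Genes around the chain were counted from lists of the other steps. Of 17 complex I assembly factors tested, 1 was called in each comparison with NTg, against 4.29% of all genes for M337V and 5.64% for WT. This was Ndufaf4, whose product helps build the part of complex I that meets ubiquinone. Its levels were 32.4, 31.5 and 28.7 CPM in NTg 4, 5 and 6, 38.3 and 41.7 CPM in WT 8 and 10 and 37.5 to 41.7 CPM in M337V. All 7 other libraries lay above the 3 labelled NTg. Ndufaf4 rose by a log2 difference of 0.35 ± 0.06 in M337V (adjusted p = 0.0199, edgeR) and 0.37 ± 0.08 in WT (adjusted p = 0.0221), comparisons that share the NTg libraries. These calls ended with the GC and length trends removed (0.19 in both, adjusted p = 0.069 and 0.0987) and without NTg 6 (adjusted p = 0.136 and 0.0817). The first also ended without M337V 2 (adjusted p = 0.0544) or M337V 1 to 3 (0.182), and the second without WT 10 (0.111), without both NTg 4 and WT 8 (0.0538) and in a fit of both groups alone (0.06). Calls over all genes fell too in M337V against NTg, from 4.29% to 1.05% with the trends removed. They fell to 0.0132% without NTg 6, 0.349% without M337V 2 and 0.0198% without M337V 1 to 3. In M337V the difference of Ndufaf4 was 0.30, 0.34 and 0.33 in these last 3 fits, near the 0.35 of the main fit. With the trends removed the difference itself shrank, to 0.19 in both comparisons. Whether the lost calls were particular to Ndufaf4 was not tested. In M337V against NTg edgeR called 0 of 4 complex II, 6 complex III, 20 complex IV and 4 ATP synthase assembly factors, 13 citric acid cycle genes, 12 regulators, 10 carriers and 76 mitochondrial ribosomal protein genes, and limma-voom and DESeq2 called 0 of these 145. At an unadjusted p below 0.05 these 8 lists held 0, 1, 3, 1, 3, 3, 0 and 7 genes in that order, 18 of 145 in all, against 24.5% of all genes. In WT against NTg edgeR and limma-voom called 0 of the 145 and DESeq2 1 (Ppargc1a), with 13 at an unadjusted p below 0.05, against 25.3% of all genes. Of 78 cytosolic ribosomal protein genes Rpl34 was lower in WT (-0.50 ± 0.13, adjusted p = 0.0433, edgeR), a call that ended on leaving out any single library of either group (adjusted p = 0.0593 to 0.172). In M337V against WT edgeR, limma-voom and DESeq2 called 0 of the 240 genes of these 10 lists, with 9 at an unadjusted p below 0.05, against 6.66% of all genes. Oligodendrocyte markers were higher in both transgenic groups, with 4 of 6 called in M337V (against 4.29% of all genes) and 5 of 6 in WT (against 5.64%). These comparisons share the NTg libraries. The markers summed to 20097 to 23366 CPM in NTg, 29356 to 33060 CPM in WT and 27249 to 33482 CPM in M337V. The part of cell composition in the differences of respiratory chain genes was not tested.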

How the data were processed

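Whole-number read counts per gene, as deposited by the authors in one table of 22024 genes and 10 libraries, were used without change. Per the labels' protocols, RNA came from cord frozen in RNAlater, with stranded TruSeq libraries and paired reads. The submitters' processing notes list R 3.3.0, DESeq2 1.14.1, STAR 2.4.2a, Salmon 0.8.2, featureCounts, Trimmomatic 0.32, Subread 1.4.6, FastQC 0.11.2 and Picard 2.6.0 without saying what each was used for. Their genome build and annotation release were not given in the sources used here. Names, coordinates and transcript lengths came from a GENCODE annotation of GRCm38 (21774 identifiers named, 250 not).

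Counts were analysed in R 4.3.3 with edgeR 4.0.16: filterByExpr (minimum count 10, total 15; 6833 genes removed), TMM scaling, and the quasi-likelihood test on a mean per group over all 10 libraries. Every adjusted p in the text is from this fit with Benjamini-Hochberg adjustment over 15191 genes unless another fit is named. Other fits used DESeq2 1.42.0, limma 3.58.1 (voom with quality weights), or edgeR with libraries left out, both groups alone, trends removed, or another filter or scaling. Their adjusted p is over the genes tested in that fit. The threshold was 0.05. CPM (counts per 1000000) use the TMM-adjusted library size. Level per kilobase divides CPM by the shortest principal transcript. Intervals are 95%, from the fitted difference and its SE. Differences between libraries are on log2(CPM + 0.5). The edgeR step was tested on simulated counts.

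Groups and animal numbers came from the labels, and p-values measure the spread between these animals. Library totals of 18724888 to 21041474 counts leave counting error small except for the isoforms with few counts. Genes named with values were, per comparison and complex, the 3 with the smallest p, all complex II subunits, the complex IV isoforms with their partners, the highest and lowest levels per length, and called genes of the other lists; genes named for the WT 8 to WT 10 contrast, the lowest variation and the motifs were chosen after their values were seen. The genes and all lists were chosen with earlier results of these data known.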

Additional observations from a re-analysis of the deposited data

Results flagged for a closer look

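In 3 of the 82 tested genes 1 of the 5 M337V libraries stood apart from the other 4 by Dixon's gap test, which chance alone flags in about 1 in 20 groups. Ndufs3, a core subunit of complex I, was at 86.11 CPM in M337V 3, with the next library at 80.75. Sdhc was at 115.5 CPM in M337V 7 (next 119.7) and Uqcrh at 140.4 CPM in M337V 7 (next 154.9). M337V 7 was also the M337V library with the lowest median over all respiratory chain genes.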

How the results depend on the processing

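The median log2 difference of the respiratory chain genes in M337V against NTg moved by less than the spread between libraries (SD 0.131) in all 18 alternatives. This spread is pooled within the 3 groups, among them WT, whose 2 library medians (-0.141 and 0.151) lie farthest apart. It exceeds the median itself (0.0382), so staying below it does not show that the sign or size was stable. The median turned to -0.0095 without M337V 1 to 3 and reached 0.083 without M337V 7 and 9. For M337V against WT 0 genes were called in all 17 alternatives. In M337V against NTg, where 0 genes passed, 2 passed in a fit of both groups alone (Cox6a2, and Cox7a2l at an adjusted p = 0.05; 7.08% of all genes passed), 1 with limma-voom (Cox6a2; 8.66%), 1 with DESeq2 (Cox7a2l; 9.87%), 2 without both NTg 4 and WT 8 (Cox6a2 and Cox8b; 2.96%) and 1 without M337V 7 and 9 (Cox7a2l; 7.59%). Leaving out single libraries gave 0 to 1 (Cox8b, without NTg 4; 1.3% of all genes). In WT against NTg 1 passed without both NTg 4 and WT 8 (Cox6a2; 0.922% of all genes). Over the alternatives in which each gene was tested in M337V against NTg (Cox6a2 was removed by the filter on a mean of 1 CPM in every group), the adjusted p of Cox6a2 ran from 0.00925 to 0.319, of Cox7a2l from 0.0175 to 0.49 and of Cox8b from 0.0259 to 0.674. For Cox6a2 and Cox7a2l the largest adjusted p came without M337V 1 to 3, where 0.0198% of all genes passed. For Cox8b it came without NTg 6, where 0.0132% passed. The medians depended on which WT animal was used: leaving out single libraries gave -0.133 (without WT 10) to 0.17 (without WT 8) in WT against NTg, and -0.132 (without WT 8) to 0.153 (without WT 10) in M337V against WT. With 1 WT library left, it was assumed to vary like the other groups. The cause was not tested. No paired analysis was possible because the groups share no animal number.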
